A study of Mus musculus with 4 samples.

Results

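The genes considered here encode members of the NF-κB family and proteins that restrain NF-κB or cytokine signalling, and their expression was compared between mouse bone marrow-derived macrophages (BMDMs) polarized to M1, polarized to M2, lacking Lamtor1, or treated with an inhibitor of mTOR. There were 10 genes, namely 4 that encode NF-κB subunits (Nfkb1, Nfkb2, Rel and Relb) and 6 that encode IκB proteins or feedback inhibitors (Nfkbia, Nfkbiz, Bcl3, Tnfaip3, Socs3 and Zfp36). The 6 are called inhibitor genes here for short, although the nuclear IκB proteins of Nfkbiz and Bcl3 can also promote transcription. They were taken from the array by gene name, and they made up 10 of the 23213 genes that the array names and 12 of the 30843 probes of those genes. Nfkb1 and Relb each had a second probe, and the other genes had 1.

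All BMDMs came from C57BL/6J mice aged 10 weeks and were grown from bone marrow for 6 days with supernatant of L929 cells, a fibroblast line that secretes the growth factor M-CSF, and then stimulated for 2 days. Wild-type M1 BMDMs were stimulated with LPS (100 ng per ml) and IFN-γ (20 ng per ml), and wild-type M2 BMDMs received IL-4 at 50 ng per ml. Lamtor1-deficient M2 BMDMs, whose genotype is labelled p18 (2400001E08Rik) -/-, received IL-4 at 50 ng per ml. Torin1-treated M2 BMDMs were wild-type and received IL-4 at 50 ng per ml together with Torin1, which blocks the kinase mTOR in both of its complexes, at 250 nM. Lamtor1 is a subunit of the Ragulator, which holds mTORC1 at the lysosome. In the study's mice it was deleted through loxP sites by a Cre driven from the LysM locus, so the deletion is restricted to myeloid cells and is not a germline loss. The study defines the wild-type BMDMs it set against knockout cells as coming from mice with floxed Lamtor1 and no Cre. The labels of the arrays call them wild-type only. Each condition was measured on 1 array, so no test was possible, no difference has a replicate check, and the spread between cultures is unknown.

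NF-κB transcription factors are dimers of Rel-homology proteins that IκB proteins hold inactive, mostly in the cytoplasm. Signals from Toll-like and TNF-family receptors activate the IκB kinase, which leads to the breakdown of IκBα and frees the dimers to enter the nucleus. Many inhibitors of the pathway are themselves NF-κB targets, so in macrophages exposed to LPS the genes that switch the response off are induced with it. Socs3 is best known as a target of STAT3 that blocks signalling by the IL-6 receptor family.

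Promoter sequences are shown because NF-κB and STAT3 each bind a short recognition sequence near the genes they control. RefSeq promoters of build GRCm38.p6, from 250 bases before to 50 bases after the transcription start, were held for 7 of the 10 genes in 10 windows of 300 bases. Nfkb1, Relb and Nfkbiz had none. The κB consensus, searched on both strands, matched in 5 of these 7 genes, which were Nfkb2, Rel, Nfkbia, Bcl3 and Tnfaip3, and in 8.46% of 32851 promoters. The sequence TTCNNNGAA, the form that STAT proteins recognise, was searched on both strands and matched in 3 of 7 genes (Nfkb2, Socs3 and Zfp36) and in 8.3% of promoters. By gene, each of the 2 motifs matched in 9.55% of 27025 genes. The stretches around these matches are shown 5′ to 3′ on the strand of the gene, with the matched bases in capitals, and positions count from the transcription start. A match describes the letters in the window and does not show that a factor binds there. In capitals are κB matches in the first 6 lines and TTCNNNGAA in the last 3, and overlapping κB matches were joined. For Nfkb2 and Tnfaip3, which have several starts in the table, the stretches shown belong to 1 start each.
Nfkbia, chr12:55492648-55492716, minus strand, −69 to −1: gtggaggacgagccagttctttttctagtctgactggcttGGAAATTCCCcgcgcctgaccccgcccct
Tnfaip3, chr10:19015486-19015575, minus strand, −165 to −76: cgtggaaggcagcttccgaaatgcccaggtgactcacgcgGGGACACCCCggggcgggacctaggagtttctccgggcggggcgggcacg
Tnfaip3, chr10:19015411-19015462, minus strand, −52 to −1: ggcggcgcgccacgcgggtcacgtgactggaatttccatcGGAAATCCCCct
Bcl3, chr7:19822734-19822763, minus strand, −8 to 22: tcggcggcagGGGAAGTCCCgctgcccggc
Nfkb2, chr19:46304658-46304736, plus strand, −79 to −1: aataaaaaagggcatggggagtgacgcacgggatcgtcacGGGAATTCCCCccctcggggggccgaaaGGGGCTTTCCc
Rel, chr11:23771011-23771101, minus strand, −132 to −42: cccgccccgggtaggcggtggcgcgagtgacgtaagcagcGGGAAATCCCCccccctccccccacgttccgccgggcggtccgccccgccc
Nfkb2, chr19:46304549-46304637, plus strand, −188 to −100: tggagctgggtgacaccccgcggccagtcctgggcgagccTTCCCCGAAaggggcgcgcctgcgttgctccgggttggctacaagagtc
Socs3, chr11:117969472-117969560, minus strand, −194 to −106: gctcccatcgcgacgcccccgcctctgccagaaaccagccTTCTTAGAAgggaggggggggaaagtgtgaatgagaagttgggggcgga
Zfp36, chr7:28379229-28379285, minus strand, −57 to −1: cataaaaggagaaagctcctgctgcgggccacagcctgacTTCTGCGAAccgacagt
Of the 5 genes with a κB match, the 3 inhibitors Nfkbia, Bcl3 and Tnfaip3 were 2-fold or more higher in M1 than in M2 BMDMs on the arrays described next, and the 2 subunit genes Nfkb2 and Rel were not. Of all genes, 30.6% were 2-fold or more higher in M1. Socs3 and Zfp36 had no κB match in these windows and were also 2-fold or more higher in M1 BMDMs.

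RNA was hybridized to Agilent whole mouse genome arrays in 1 colour, and the values are processed signals, which are spot intensities after background subtraction by the scanner software. All 4 arrays lay on the same slide. The signal at the 75th percentile of all probes was 287 in M1 and between 470.0 and 595 in the 3 cultures with IL-4, and each array was divided by its own value before ratios were taken on the log2 scale. Signals quoted for a gene are those before this division, so a gene can have a lower signal in M1 than in M2 and still a ratio above 0. The arrays held 50.9 to 55.4% of their probes well above background. All 12 probes of the 10 genes were well above background on all 4 arrays, and no spot on any array was saturated. The M2 array, to which the ratios refer, stood apart in 6 of 7 neutrophil markers. Their summed normalized signal was 90.5 there and 4.41 to 6.3 on the other 3 arrays, or 25.2 and 3.03 to 3.85 without S100a9. The 7th, Elane, went the other way, at 52.1 in M1, 12.4 in M2 and 18.6 without Lamtor1, with no value for Torin1. With Elane the sums were 56.5 in M1, 103 in M2 and 24.9 without Lamtor1. The part of these markers in the ratios below was not tested. The targeted gene, listed by the array as 2400001E08Rik, had a signal of 14690 in M1, 39460 in M2, 833 without Lamtor1 and 35230 with Torin1, a log2 ratio of −5.42 for Lamtor1-deficient to M2 BMDMs. The scanner software gave an error of about 10.0% for a single bright spot, nearly the same at every bright signal. This makes 0.20 on the log2 ratio of 2 arrays, and 0.23 to 0.30 for the dim probes of Rel and Nfkbiz. For the second probe of Nfkb1, averaged over 2 spots, it makes 0.14. Probes spotted at least 8 times, bright and dim, gave a smaller measured spread, a median SD of 0.12 to 0.17 for such ratios. The scanner error is the software's estimate for spots within an array and does not cover the variation between cultures. Below, neighbouring arrays are called separated where their gap exceeded 2 such errors, which says nothing of a repeat culture. As RNA of whole cultures was measured, fewer cells that express a gene and less RNA of it per cell cannot be told apart.

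All 6 inhibitor genes were 2-fold or more higher in M1 than in M2 BMDMs, and none of the 4 subunit genes was. Over all named genes, 30.6% were 2-fold or more higher and 19.3% lower in M1 BMDMs, 49.8% in all. With each array shifted to its median instead, these shares were 15.5% and 31.8%, and with quantile normalization they were 18.7% and 24%. The median log2 ratio of M1 to M2 was 3.51 over the 6 inhibitors, 0.39 over the 4 subunits and 0.74 over all genes. With quantile normalization the median of all genes was −0.06, and the subunits lay on both sides of it, at −0.68 for Nfkb1, −0.21 for Rel and 0.39 for Nfkb2 and Relb. The shift to the median lowered every M1 ratio by the same amount and put the median of all genes at −0.08. Under it the same 6 inhibitors remained past 2-fold, with log2 ratios from 1.14 for Bcl3 to 7.77 for Socs3.

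**Figure D1:**
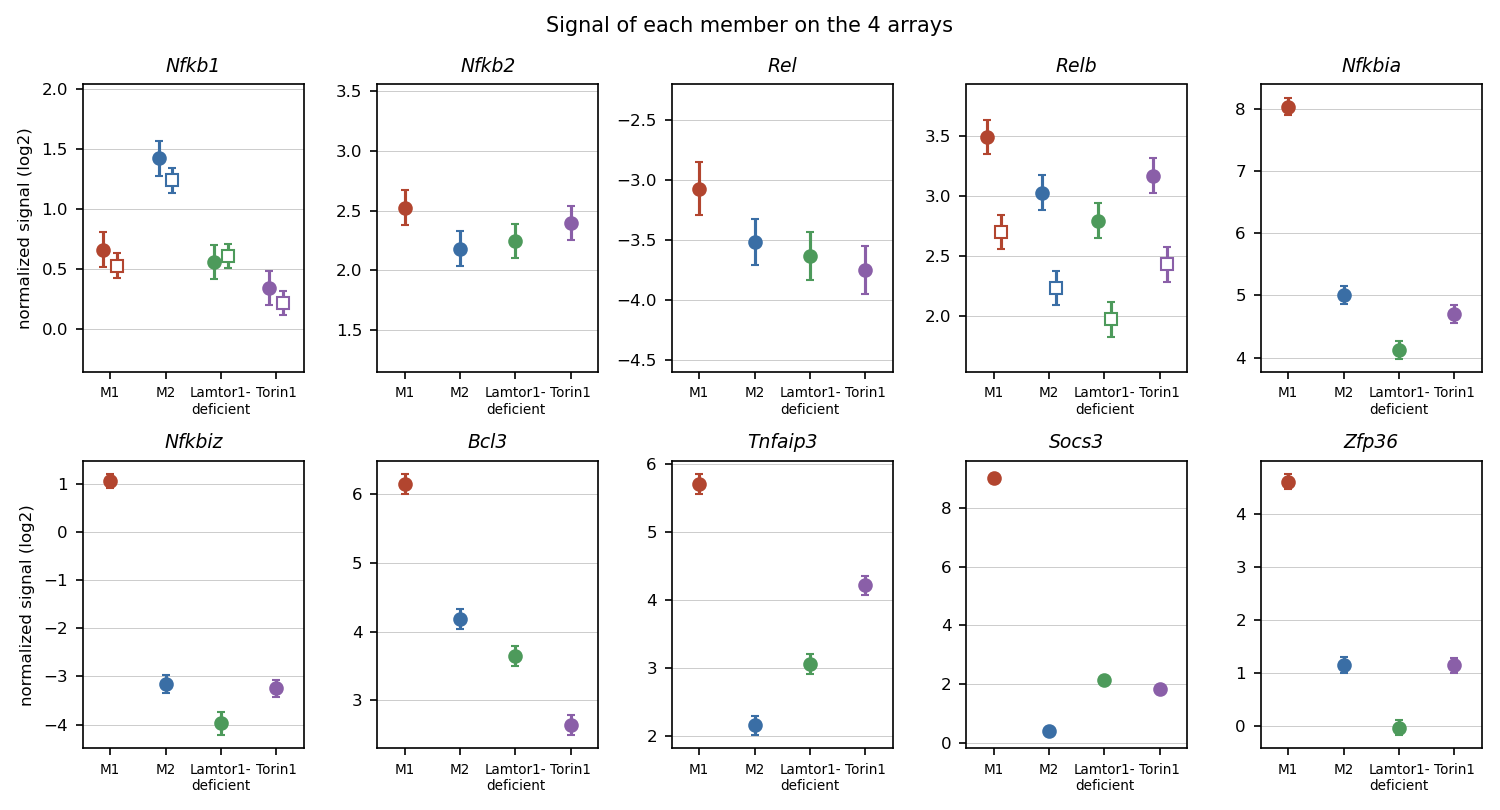
Normalized signal (log2, relative to the 75th percentile of the array) of each of the 10 genes on the 4 arrays, with filled circles for the brightest probe, open squares for the second probe of Nfkb1 and Relb, and bars for 1 scanner error. M1 has the highest value in all 6 inhibitor panels, and the axes differ between panels, so levels should not be read across genes.

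Nfkb1, which encodes p105 and its product p50, was highest in wild-type M2 BMDMs. Its signal was 453 in M1, 1594 in M2, 788 without Lamtor1 and 594 with Torin1 (probe A_55_P1968743; chr3:135254550-135254609 of mm9, the build of the array annotation). The log2 ratio to M2 was −0.76 for M1, −0.87 without Lamtor1 and −1.08 with Torin1. On this probe the M2 array was separated from each of the other 3, which were not separated from their neighbours in the order M1, Lamtor1-deficient, Torin1-treated. A second probe of Nfkb1 (A_55_P1968738), spotted 2 times on each array, gave −0.71, −0.63 and −1.02. On this probe M2 was again highest and separated from the next, but the order below it was Lamtor1-deficient, M1, Torin1-treated, and M1 was separated from Torin1-treated BMDMs. That gap was 0.31, more than 2 errors of this probe but less than 2 errors of a single-spot probe. The 2 spots of this second probe lay within 0.13 of each other on the log2 scale on every array. The Torin1 ratio lay at the 2-fold limit, since it was −0.999 and so just inside that limit when the percentile was taken over bright probes alone, that is those well above background on each of the arrays. The M1 ratio passed 2-fold with a shift to the median, at −1.58.

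The other subunit genes differed by less than 2-fold between the arrays. Nfkb2, which encodes p100 and p52 of the non-canonical branch, had signals of 1649 in M1, 2700 in M2, 2541 without Lamtor1 and 2472 with Torin1 (probe A_51_P454217; chr19:46386146-46386285 of mm9). After scaling, its log2 ratios to M2 were 0.34, 0.06 and 0.21, respectively, and no neighbouring arrays were separated. Relb, the usual partner of p52, had signals of 3235, 4861, 3726 and 4238 in the same order (probe A_51_P389751; chr7:20191722-20191781 of mm9), and log2 ratios of 0.46, −0.23 and 0.14. Its second probe (A_55_P2168736) gave 0.47, −0.26 and 0.20, and neither probe separated neighbouring arrays. M1 and M2, which were not neighbours, lay 2.28 and 2.29 errors apart on these probes, and the whole range, from M1 down to Lamtor1-deficient BMDMs, was 0.70 and 0.73 on the log2 scale.

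Rel, which encodes c-Rel, had a dim probe, with signals of 34.1 in M1, 51.9 in M2, 43.3 without Lamtor1 and 34.9 with Torin1 (probe A_51_P187461; chr11:23641729-23641743 of mm9, a listed span of 15 bases). The lowest signal counted as well above background on these arrays lay between 15.7 and 21.6. The log2 ratios were 0.45, −0.11 and −0.23, all within 2 errors of 0, and M1 and Torin1-treated BMDMs, the highest and the lowest, lay 2.28 errors apart. The sign of these small ratios depended on the scaling. With a shift to the median, the M1 ratios of Nfkb2, Rel and Relb turned to −0.48, −0.37 and −0.36, and the Torin1 ratios of Nfkb2 and Relb to −0.04 and −0.11. The M1 ratio of Rel was also below 0 with quantile normalization, at −0.21. With the shift to the median Rel and Relb, like Nfkb1, were highest in M2, with Lamtor1-deficient ratios of −0.05 and −0.17. The Torin1 ratio of Rel was 0.01 with normexp background correction.

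**Figure D2:**
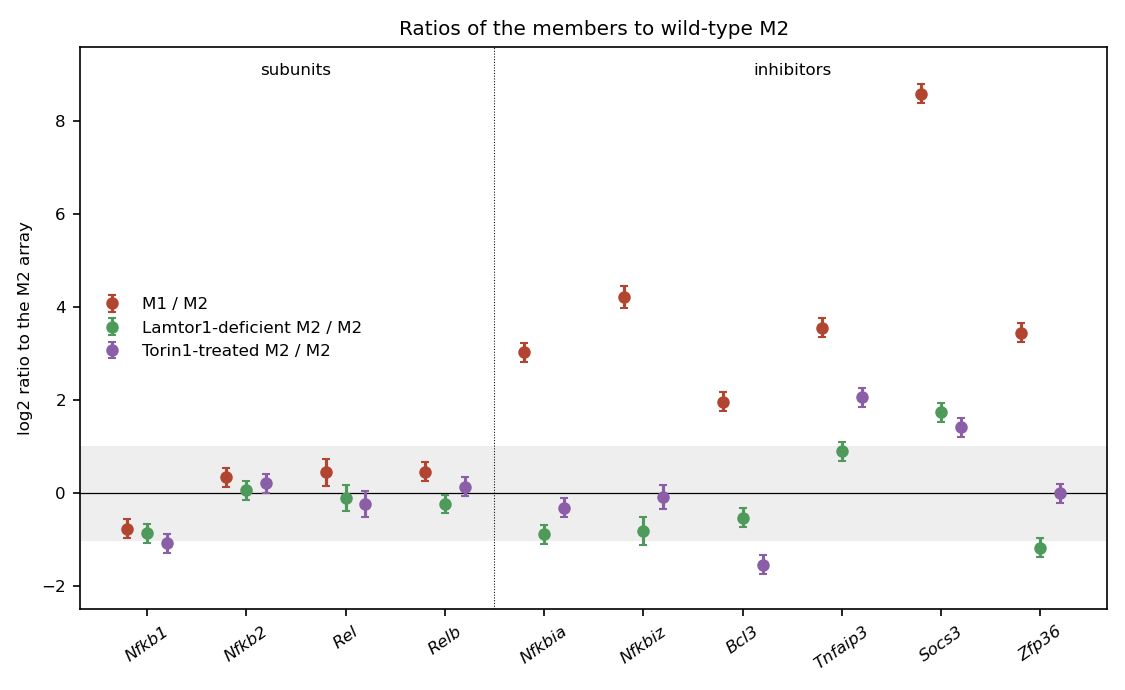
Log2 ratio of each gene to the M2 array for M1 (red), Lamtor1-deficient (green) and Torin1-treated (purple) BMDMs, on the brightest probe, with bars of 1 scanner error and a grey band for less than 2-fold. The 6 inhibitors lie above the band in M1, whereas the ratios of the IL-4 cultures lie on both sides of 0. The 3 ratios of a gene share the M2 array.

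In Lamtor1-deficient BMDMs, 1 of the 10 genes was 2-fold or more higher than in M2 (Socs3) and 1 was lower (Zfp36), against 8.88% of all genes higher and 8.67% lower. In Torin1-treated BMDMs, 2 were higher (Tnfaip3 and Socs3) and 2 were lower (Nfkb1 and Bcl3), against 14.3% of all genes higher and 11.8% lower. The share called either way was 17.6% of all genes for Lamtor1 deficiency and 26.0% for Torin1. These are 2 and 4 genes of 10, and single genes make up the counts. The median log2 ratio over the 10 genes was −0.38 for Lamtor1 deficiency and −0.04 for Torin1, beside 0.04 and −0.05 over all genes.

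Nfkbia encodes IκBα, the inhibitor that retains p50 and p65 dimers in the cytoplasm. Its signal was 75590 in M1, 19230 in M2, 9356 without Lamtor1 and 12200 with Torin1 (probe A_51_P295192; chr12:56590945-56591440 of mm9). M1 was 8.15-fold above M2, a log2 ratio of 3.03. The log2 ratio to M2 was −0.89 without Lamtor1 and −0.32 with Torin1. Lamtor1-deficient BMDMs had the lowest level, separated from Torin1-treated BMDMs, which were not separated from M2. With quantile normalization the Lamtor1-deficient ratio passed 2-fold, at −1.06.

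Nfkbiz encodes IκBζ, a nuclear IκB protein that helps NF-κB switch on secondary genes such as Il6. Its signal was 601 in M1, 66.7 in M2, 34.0 without Lamtor1 and 49.6 with Torin1 (probe A_55_P2039086; chr16:55817859-55817918 of mm9). M1 was 18.7-fold above M2, a log2 ratio of 4.23. The order of the arrays was the same as for Nfkbia, and again the Lamtor1-deficient array was separated from the one above it. The log2 ratio to M2 was −0.82 without Lamtor1 and −0.09 with Torin1. The 3 IL-4 signals were dim. With normexp background correction the M1 ratio was 3.23, the Lamtor1-deficient ratio −0.31 and the Torin1 ratio 0.08.

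Bcl3 encodes a nuclear IκB protein that binds p50 and p52 dimers. Its signal was 20330 in M1, 10800 in M2, 6733 without Lamtor1 and 2923 with Torin1 (probe A_55_P2066116; chr7:20393826-20393885 of mm9). The M1 level was 3.90-fold that of M2, and among the 6 inhibitors this was the smallest M1 ratio. The log2 ratio to M2 was −0.53 without Lamtor1 and −1.55 with Torin1. All 4 arrays were separated from their neighbours, in the order M1, M2, Lamtor1-deficient, Torin1-treated. Torin1-treated BMDMs held 8.77% of the M1 level and M2 BMDMs 25.6%. The Torin1 ratio ranked 1536th from the lowest of 23188 genes, and it lay between −1.79 and −1.46 under the other scalings and corrections.

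Tnfaip3 encodes A20, an enzyme that edits ubiquitin chains and ends signalling from TNF and Toll-like receptors. Its signal was 14980 in M1, 2640 in M2, 4457 without Lamtor1 and 8718 with Torin1 (probe A_55_P2053838; chr10:18720776-18720835 of mm9). M1 was 11.8-fold above M2, a log2 ratio of 3.56. Lamtor1-deficient and Torin1-treated BMDMs lay between M2 and M1, with log2 ratios to M2 of 0.90 without Lamtor1 and 2.06 with Torin1. All 4 arrays were separated, in the order M1, Torin1-treated, Lamtor1-deficient, M2. Relative to M1, the level was 8.50% in M2, 15.9% without Lamtor1 and 35.5% with Torin1. The 4.18-fold difference with Torin1 ranked 749th from the highest of 23188 genes, and its log2 ratio lay between 1.82 and 2.24 under the other settings.

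Socs3, a feedback inhibitor of JAK kinases, varied most among the 10 genes. Its signal was 147000 in M1, 792 in M2, 2384 without Lamtor1 and 1671 with Torin1 (probe A_51_P474459; chr11:117827480-117827539 of mm9). M1 was 385-fold above M2, a log2 ratio of 8.59 that ranked 28th from the highest of 23203 genes. The log2 ratio to M2 was 1.74 without Lamtor1 and 1.42 with Torin1, and these 2 cultures were not separated from each other. Both stayed far below M1, at 0.87% of its level without Lamtor1 and 0.69% with Torin1, beside 0.26% in M2. No scaling or correction brought either ratio under 2-fold, and their lowest values were 1.61 and 1.17.

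Zfp36 encodes tristetraprolin, which binds AU-rich elements and promotes decay of cytokine mRNAs such as Tnf. Its signal was 6960 in M1, 1317 in M2, 525 without Lamtor1 and 1039 with Torin1 (probe A_52_P80944; chr7:29161940-29161999 of mm9). M1 was 11.0-fold above M2, a log2 ratio of 3.45. Lamtor1-deficient BMDMs were 2.26-fold below M2, a log2 ratio of −1.18 that lay between −1.24 and −1.09 under the other settings. The Torin1-treated and M2 levels were close, with a log2 ratio of −0.00 that changed sign with the scaling, from −0.25 to 0.08. The order was M1, M2, Torin1-treated, Lamtor1-deficient, and M2 and Torin1-treated BMDMs were not separated.

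**Figure D3:**
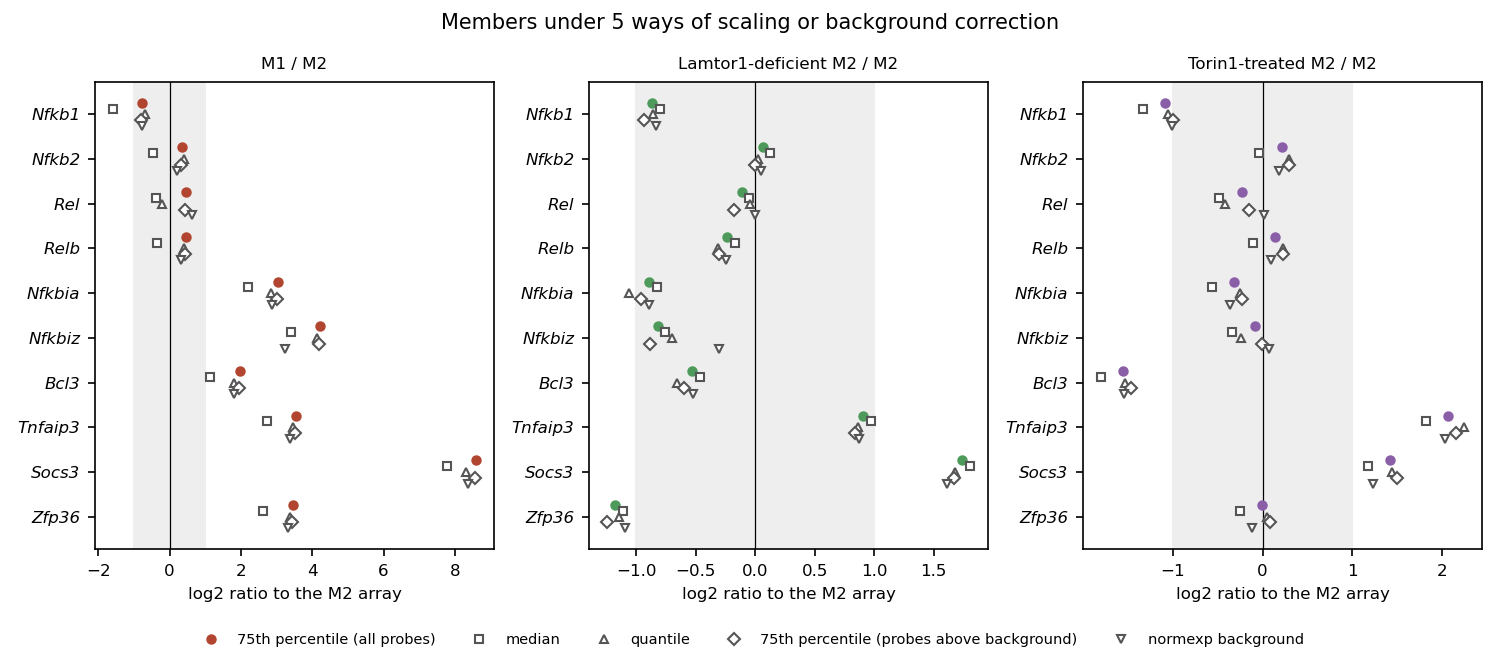
Log2 ratios of the 10 genes to M2 with the 75th percentile of all probes (filled) and with 4 other scalings or corrections (open), in 3 panels whose horizontal axes differ. A shift to the median moves every M1 ratio to the left, so that Nfkb2, Rel and Relb change sign, while the 6 inhibitors stay right of the grey 2-fold band.

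The cultures without Lamtor1 and with Torin1 were also set against each other, without the M2 array, a comparison added after the values had been seen. Of the 10 genes, 2 were 2-fold or more higher with Torin1 (Tnfaip3 and Zfp36) and 1 was lower (Bcl3), against 12.7% of all genes higher and 11.7% lower. Tnfaip3 was 2.23-fold higher, a log2 ratio of 1.16, and Zfp36 2.26-fold higher, a log2 ratio of 1.17. With a shift to the median these became 0.85 and 0.86, under 2-fold. Bcl3 was 2.02-fold lower, a log2 ratio of −1.01, which became −0.86 when the percentile was taken over bright probes alone.

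The other 3 inhibitors and the subunits did not reach 2-fold. The log2 ratio of Torin1-treated to Lamtor1-deficient BMDMs was 0.57 for Nfkbia and 0.73 for Nfkbiz. That of Socs3 was −0.32, and those of the 4 subunits ran from −0.22 for Nfkb1 to 0.38 for Relb. The median of all genes in this comparison was −0.12, or −0.43 with a shift to the median.

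Around the 10 genes, 75 other genes of the pathway were read in 7 lists by role. Their ratios were taken with the 75th percentile of all probes only, and a shift to the median would lower each M1 ratio as it did for the 10 genes. Of these 75, 39 were 2-fold or more higher and 12 lower in M1 than in M2 BMDMs, where 30.6% of all genes were higher and 19.3% lower. In Lamtor1-deficient BMDMs 12 were higher and 16 lower, beside 8.88% and 8.67% of all genes. In Torin1-treated BMDMs 12 were higher and 19 lower, beside 14.3% and 11.8% of all genes. The median log2 ratio was 1.22 for M1, −0.27 for Lamtor1 deficiency and −0.09 for Torin1, and over all genes it was 0.74, 0.04 and −0.05.

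Among 10 receptors, 1 was 2-fold or more higher and 4 were lower in M1, 1 was higher and 3 were lower without Lamtor1, and 0 were higher and 4 lower with Torin1. Cd40, a TNF-family receptor, had a log2 ratio to M2 of 3.63 in M1, −1.93 without Lamtor1 and −2.31 with Torin1. Tlr4, the LPS receptor, was −2.86 in M1, −0.999 without Lamtor1 and −1.58 with Torin1, while Cd14, its co-receptor, was −1.86 without Lamtor1 and 0.00 with Torin1. In M1, Tnfrsf1b, a TNF receptor, was −3.67 and Tlr2 was −2.81. Tnfrsf11a, which encodes RANK, was −1.07 without Lamtor1 and −1.55 with Torin1. Il1r1, the IL-1 receptor, was −1.09 in M1, 1.11 without Lamtor1 and −2.68 with Torin1.

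Among 16 IκB kinase and adaptor genes, 4 were higher and 3 lower in M1, while 1 was higher and 0 lower without Lamtor1, and 1 was higher and 1 lower with Torin1. Irak2, an adaptor kinase below Toll-like receptors, was 2.41 in M1 and 1.12 without Lamtor1. Traf6, a ubiquitin ligase that relays the signal to the IκB kinase, was 1.52 in M1, −0.56 without Lamtor1 and 1.72 with Torin1. Irak4, the kinase that starts signalling from these receptors, was −2.87 in M1 and −1.24 with Torin1. Also in M1, Irak1 was −1.68, Ikbkg, the regulatory subunit of the IκB kinase, was −1.11, and the adaptor gene Traf2 was 2.35. Rela, which encodes p65, was within 2-fold in each comparison, at 0.85 in M1, −0.04 without Lamtor1 and 0.28 with Torin1.

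The other IκB genes were Nfkbib, Nfkbie and Nfkbid. All 3 were 2-fold or more higher in M1, with log2 ratios of 3.59, 1.52 and 1.16, where 30.6% of all genes were. The shift to the median, which took the M1 ratio of Bcl3 from 1.96 to 1.14, would put Nfkbie and Nfkbid under 2-fold. Without Lamtor1, Nfkbid (IκBNS) was at −2.22 and Nfkbie (IκBε) at −2.08, both lower, and Nfkbib (IκBβ) was at 0.76. With Torin1, Nfkbib was at 1.08, Nfkbie at −1.19 and Nfkbid at −0.02. Thus Nfkbid, like Zfp36, was low in the Lamtor1-deficient culture and close to M2 in the Torin1-treated one. Among 18 further feedback inhibitors, 10 were higher and 3 lower in M1, 1 was higher and 5 lower without Lamtor1, and 1 was higher and 7 lower with Torin1. Tnip1, which encodes a partner of A20, was the one that was higher without Lamtor1 and also the one with Torin1, with log2 ratios of 1.12 and 1.00, beside 2.61 in M1. Its Torin1 ratio of 1.004 lay at the 2-fold limit, and that of Zfp36l2 fell just short, at 0.9997. Zfp36l1, a relative of Zfp36, was at −1.76 in M1, −2.15 without Lamtor1 and −3.98 with Torin1. Dusp1, a phosphatase that ends MAP kinase signalling, was at 4.84 in M1 and −1.88 without Lamtor1. In M1, Il1rn, the IL-1 receptor antagonist, was at 7.28, Traf1 at 3.51 and Cish, a target of STAT5, at −1.38. Traf1 was at −1.08 without Lamtor1 and −1.16 with Torin1, where Cish was at −1.16 as well. Tnip3, another partner of A20, was at −2.36 with Torin1. Socs2 was at least 27.9-fold lower in M1, where it was not well above background, and it was at −2.22 without Lamtor1 and −3.42 with Torin1.

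Of 20 NF-κB target genes, 19 were 2-fold or more higher in M1 and none was lower, with a median log2 ratio of 4.19. Of all genes, 30.6% were higher and 19.3% lower. Without Lamtor1 9 were higher and 4 lower, with a median of 0.35, and with Torin1 9 were higher and 2 lower, with a median of 0.32. In each of these comparisons 14 of the 20 genes were well above background on both arrays, and dimmer genes entered the counts at their measured values. Il12b and Il23a, counted as higher in M1, were not well above background on either array. Nor were Il23a, counted as higher, and Cxcl2, counted as lower, without Lamtor1. Il1b, counted as lower without Lamtor1, and Il6, counted as higher with Torin1, had bounds of only 1.82-fold and 1.23-fold. A shift to the median would put Il12b and Il23a under 2-fold and Cxcl1 past 2-fold lower in M1. Nos2, the inducible nitric oxide synthase, was at 10.56 in M1, 5.60 without Lamtor1 and 5.42 with Torin1. Ptgs2, the inducible cyclooxygenase, was at 8.23 in M1 and 2.70 with Torin1. Tnf was at 5.77 in M1 and −1.88 without Lamtor1, where the chemokine gene Cxcl1 was at 3.52. Ccl5, another chemokine, was at 4.73 in M1, −1.33 without Lamtor1 and 2.87 with Torin1. Icam1, an adhesion molecule, was at 2.32 in M1 and −2.69 with Torin1. Il1a was not well above background in M2 and was at least 44.0-fold higher in M1, at least 15.1-fold higher without Lamtor1 and at least 2.86-fold higher with Torin1. Il1b was at 4.06 in M1. Not well above background on the Lamtor1-deficient and Torin1 arrays, it was at least 1.82-fold lower without Lamtor1 and at least 2.03-fold lower with Torin1.

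Of 7 genes of IL-10 and JAK-STAT3 signalling, on which Socs3 acts or depends, 2 were higher and 2 lower in M1, 0 were higher and 2 lower without Lamtor1, and 0 were higher and 4 lower with Torin1. Stat3 itself was at 2.38 in M1, 0.34 without Lamtor1 and −0.59 with Torin1. Il10 was at 4.76 in M1, and it was not well above background without Lamtor1 or with Torin1, where it was at least 3.64-fold lower without Lamtor1 and at least 4.06-fold lower with Torin1 than in M2. Il10ra, its receptor chain, was at −1.58 and −2.52, and Jak2 was at −1.24 in M1 and −1.73 with Torin1. Il6st, the shared chain of the IL-6 receptor family, was at −1.69 in M1 and −1.22 with Torin1.

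**Figure D4:**
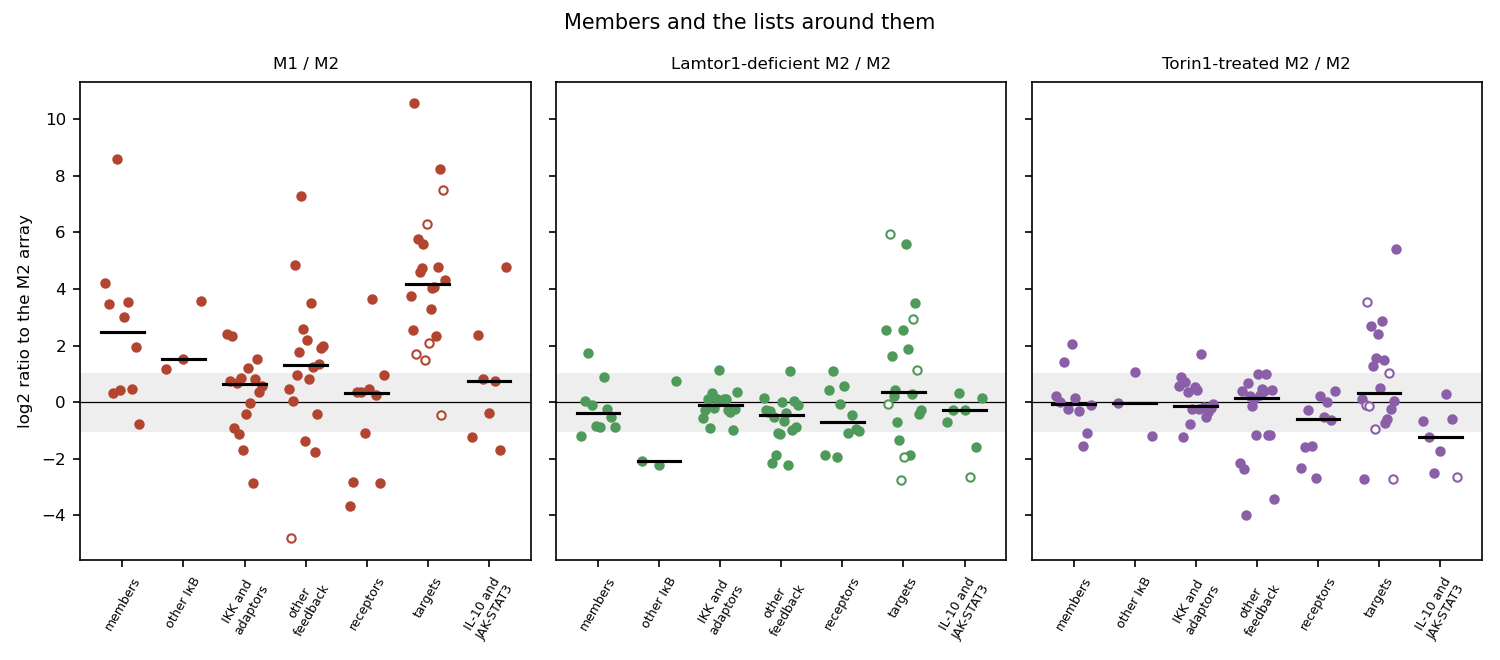
Log2 ratio to M2 of the 10 genes (labelled members) and of the genes of 6 lists around them, without Rela, in 1 panel per comparison, with black lines for medians, a grey band for less than 2-fold and open circles for genes not well above background on both arrays. The targets list lies highest in M1, with a median of 4.19, and spreads to both sides of 0 in the other panels.

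Patterns over the 4 arrays were compared for the 2 genes with the widest range, Nfkbiz and Socs3, among the 12804 genes that every array measured well above background. Distance was the Euclidean distance between log2 signals after each gene was centred on its mean. Nearest to Socs3 were Upp1 (distance 0.55), Egln3 (1.03) and Ly6c1 (1.03). Upp1, for example, had log2 ratios to M2 of 8.40 in M1, 1.27 without Lamtor1 and 0.69 with Torin1. Nearest to Nfkbiz were 5830409B07Rik (0.21), Irgm2 (0.30) and Krtap16-10 (0.43). With 4 arrays many genes can lie this close, and these names are a description.

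Markers of cells in the cultures were read on the same arrays. Macrophage markers had probes for 8 of 10 listed symbols, and the list held both Emr1 and Adgre1, which are symbols of the same gene. All 8 were well above background on every array, and their summed normalized signal was 475 in M1, 799 in M2, 645 without Lamtor1 and 661 with Torin1. Csf1r alone gave 43.3 to 60.8% of this sum, and single markers differed far more. Fcgr1, for example, was 31.1-fold lower than in M2 without Lamtor1 and 24.4-fold lower with Torin1, and Emr1, which encodes F4/80, was 5.95-fold and 7.02-fold lower. In all, 3 of 8 were 2-fold or more lower without Lamtor1 and 2 of 8 with Torin1. Neutrophil markers had probes for 7 of 8 genes, and none of them was at 0. Of the 7, 5 were well above background in M1, 7 in M2 and without Lamtor1, and 6 with Torin1. Over the 6 with a value on all arrays, the summed signal was 4.41 in M1, 90.5 in M2, 6.3 without Lamtor1 and 5.87 with Torin1. S100a9 gave 72.1% of it in M2 and 31.3 to 40.8% on the others, and without it the sums were 3.03, 25.2, 3.85 and 3.47 in the same order. Each of these 6 was 2-fold or more lower than in M2 on all 3 other arrays. The 7th, Elane, went the other way, at 52.1 in M1, 12.4 in M2 and 18.6 without Lamtor1, and its spot with Torin1 was marked as an outlier. Fibroblast markers summed to 16 in M1, 43.2 in M2, 55.9 without Lamtor1 and 15.3 with Torin1. Col1a2 gave 36.7 to 74.8% of this, and without it the sums were 10.1, 12.3, 19.7 and 3.86. Dcn, unlike the other 5, was higher in M1 than in M2, by 5.86-fold. The 7 lymphocyte markers summed to between 2.07 and 4.17, of which Cd3e gave 64.7 to 86.1%, and 3 of them were well above background in M1, in M2 and with Torin1 and 5 without Lamtor1. In the Lamtor1-deficient culture Cd3d was at least 4.35-fold and Cd3g at least 1.79-fold higher than in M2, and Cd79a was 3.57-fold lower. The sum over dendritic cell markers was at least 98.7% Siglech on each array, and without it the other 4 summed to 1.34 in M1, 0.338 in M2, 1.2 without Lamtor1 and 0.379 with Torin1. Of those 4, Ccr7 was 5.83-fold higher than in M2 without Lamtor1. The single markers in this paragraph are named because of their values. The part of other cells in the values of the 10 genes was not tested.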

How the data were processed

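The authors deposited scanner output of 4 Agilent 1-colour arrays with an intensity for each spot, background-subtracted and detrended by Feature Extraction (10.7.3.1 per the file headers, 10.5.1.1 per the labels) and not normalized between arrays. Their methods set a raw signal threshold of 1.0 and a percentile shift to 75 in the Subio Platform. Here this was repeated from the scanner signals: control and outlier spots were left out, spots of a probe were averaged, and each array was divided by its 75th percentile over 55681 non-control probes and put on the log2 scale. A gene was represented by its brightest probe and called at 2-fold or more. The deposited series table differed from the scanner intensities by at most 0.499%. Over probes spotted at least 8 times, the median SD between spots was 0.06 to 0.07 on the log2 scale for probes well above background and 0.20 to 0.24 for signals of 20 to 100. With 1 array per condition there were no tests, and precision is limited by the number of arrays.

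The text names all 10 genes, the targeted gene, Rela, the 3 nearest patterns of 2 genes and, from the 3 largest rises and 3 largest falls of each list in each comparison, those past 2-fold, a limit added after the values had been seen. Listed genes short of 2-fold are left to the counts, except where a value completes that of a named gene. The genes and lists were chosen with earlier results of these data known. Probe positions are those of the array annotation (mm9), and where in a transcript a probe lies was not analysed here. Promoters are RefSeq sequences on GRCm38.p6. Alternatives were 3 other scalings (a shift to the median, quantile normalization, and the percentile over bright probes alone, those well above background on each array), normexp background correction with an offset of 50, 2 filters and a floor for dim probes, outlier spots kept, other rules for several probes, 3-fold, and the series table. The procedure was tested on simulated data. Tables were computed in Python 3.11.15 (pandas 2.3.3, NumPy 2.4.6, SciPy 1.17.1), figures were drawn with matplotlib 3.10.9, and normexp was run with limma 3.58.1 under R 4.3.3.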

Additional observations from a re-analysis of the deposited data

How the results depend on the processing

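The limit on every value is the single array per condition, and depth, read as signal over background, mainly limits Rel and Nfkbiz. Of 40 log2 ratios of the 10 genes, 15 passed 2-fold, all 15 kept their sign under every alternative, and 11 also stayed past 2-fold. Of 88 recomputed counts of genes past 2-fold, 76 lay within 1.5 times the reported count. For M1 against M2, the count lower was 1 with a shift to the median. For Lamtor1-deficient against M2, the count lower was 2 with quantile normalization and 0 at 3-fold. For Torin1-treated against M2, the count higher was 1 at 3-fold, and the count lower was 1 with the percentile taken over bright probes alone and 0 at 3-fold. For Torin1-treated against Lamtor1-deficient BMDMs, the count higher was 0 with a shift to the median, 1 with normexp and 0 at 3-fold, and the count lower was 0 with quantile normalization, 0 with the percentile taken over bright probes alone and 0 at 3-fold. The 3-fold counts are lower by construction, and for the other settings the cause was not tested. The median of all genes moved from −0.05 to −0.30 for Torin1 with a shift to the median and to 0.21 with normexp. No paired analysis was possible because each condition has 1 array and the groups share 1 replicate number.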

Other observations

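The pathway lists were also read between the Torin1-treated and the Lamtor1-deficient culture, without the M2 array, a comparison chosen after values had been seen. Of the 75 genes, 14 were 2-fold or more higher with Torin1 and 14 were lower, beside 12.7% and 11.7% of all genes. Among the higher genes were Ccl5, with a log2 ratio of 4.20, Traf6 with 2.28, Ptgs2, the inducible cyclooxygenase, with 2.27, Nfkbid with 2.20, Cd14 with 1.86, Dusp1 with 1.73, Zc3h12a, which encodes Regnase-1, with 1.56, Zfp36l2 with 1.39, Tlr2 with 1.35, Tnf with 1.28 and Ikbkg with 1.26. Among the lower genes were Il1r1 with −3.79, the chemokine gene Cxcl1 with −3.75, Icam1 with −2.43, Il1a with −2.40, Zfp36l1 with −1.83, Socs1 with −1.49, Tnip3 with −1.38, Jak2 with −1.05 and Irak4 with −1.02. Of the 20 target genes, 6 were higher and 7 lower.

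Marker lists of polarization were read as a check of the labels. The summed normalized signal of 4 IL-4-induced genes was 5.92 in M1, 1360 in M2, 767 without Lamtor1 and 587 with Torin1. Without Chi3l3, which gave 96.5% of the sum with Torin1, the other 3 summed to 5.82, 875, 197 and 20.8. That of 5 genes induced by IFN-γ and LPS, which include Nos2 and Irf1 of the target list, was 1940 in M1, 57.4 in M2, 94.8 without Lamtor1 and 167 with Torin1. Irf1 gave 33.9 to 85.9% of it, and the other 4 summed to 1280, 8.1, 37.2 and 29.5.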
